A study of Mus musculus with 16 samples.

Results

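Messages carried by 2 to 4 ribosomes were set against messages carried by 1 ribosome in hepatocytes of FVB mice fed DDC, a porphyrinogenic compound that injures the liver, for 4 weeks. The comparison holds 4 of the 16 libraries of the study: DDC light polysome replicates 1 and 2 against DDC monosome replicates 1 and 2, where replicate 1 of both fractions carries the preparation letter B and replicate 2 the letter C. The other libraries are DDC heavy polysome (more than 5 ribosomes) and DDC cytoplasm, and the same 4 RNA pools from mice fed chow, with 2 libraries each. All mice were FVB, all hepatocytes were isolated in cycloheximide, and polyadenylated RNA was sequenced with a stranded kit. The labels do not say how many animals a preparation pools, so the p-values measure the spread between these samples. That spread was shared over all 8 groups of the study.

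A sucrose gradient sorts messages by the number of ribosomes they carry, and cycloheximide holds elongating ribosomes in place while the cells are lysed. A message with a short coding sequence has room for few ribosomes, so that the number it carries depends on the length of its coding sequence as well as on how often ribosomes start on it. TOP messages, which encode ribosomal proteins and some translation factors, begin with a run of pyrimidines at their cap. They are known for moving as a group between a ribosome-poor state and polysomes when growth signalling changes. RNA that is not translated by cytosolic ribosomes, such as nuclear RNA and the transcripts of the mitochondrial genome, has no place on polysomes and can still sediment in a gradient with other particles.

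The files hold 48158 genes after the transcripts of each gene were summed, and 9972 had at least 1 FPKM (fragments per kilobase of transcript, scaled to the depth of the library) in at least 2 of the 4 libraries. Of these, 9966 were tested, 9487 of them protein-coding. The other 6 were listed at 0 in both libraries of one fraction although a library held at least 100 FPKM, and were treated as missing: C3 was listed at 0 in DDC light polysomes, and mt-Nd1, mt-Co1 and mt-Nd4 in DDC monosomes. Between 9484 and 9824 genes reached 1 FPKM in each of the 4 libraries, and 1 fragment per kilobase was worth 0.0202 to 0.0442 FPKM. The replicates correlated at 0.962 in DDC light polysomes and 0.953 in DDC monosomes across genes. The median replicate SD in log2 units was 0.251 in DDC light polysomes and 0.267 in DDC monosomes. It was smaller in CHOW cytoplasm (0.123), DDC cytoplasm (0.148) and CHOW light polysomes (0.138), and 0.223 to 0.261 in the remaining groups. The p-values thus rest in part on groups with less spread than those compared. FPKM are relative to the other RNA of a library, so a higher value on light polysomes is not a count of molecules. Nor are they shares of a common total. Summed FPKM were 617850 and 761690 in DDC light polysomes and 614115 and 668537 in DDC monosomes. In DDC heavy polysomes they were 1092668 and 858593. Differences are in log2(FPKM + 1), light polysome minus monosome, where 1 is a 2-fold difference for an abundant message and less than the true one for a scarce message.

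By limma with Benjamini-Hochberg adjustment, 341 genes were higher on DDC light polysomes than on DDC monosomes (3.42% of those tested) and 119 were lower (1.19%). Of these, 301 and 94 differed by at least 2-fold. Those higher included 31 of 77 nuclear genes of the respiratory chain, 15 of 77 mitochondrial ribosomal protein genes and 11 of 23 genes of small ubiquitin-like proteins. Those lower included 5 of 33 and 5 of 49 genes of the small and large cytosolic ribosomal subunits, 3 of 15 host genes of small nucleolar RNAs and 4 of the 5 mitochondrially encoded protein genes that could be tested. All 460 (4.62%) went the same way in preparation B and in preparation C, and in all 460 the libraries of the 2 fractions did not overlap. Over all genes tested, 24.5% were higher on light polysomes with no overlap and 20.1% lower. With libraries scaled to equal totals, 306 were higher and 176 lower, and after quantile normalization 340 and 240, so that the share of higher calls was 63.5% and 58.6% against 74.1%. Without DDC light polysome replicate 2, 139 were higher and 58 lower. Without DDC monosome replicate 1, 180 were higher and 73 lower. Without DDC light polysome replicate 1, 78 were lower. The number of calls changed with the libraries and the pairing in the fit: with the 8 DDC libraries alone 70 were higher and 19 lower, and with the 4 compared libraries alone 0 were called by limma, with 1256 at an unadjusted p under 0.05. The same 4 libraries paired by preparation, as a replicate block, gave 217 higher and 77 lower.

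Among genes that averaged at least 50 FPKM in either fraction, the largest rises were in messages for small proteins. Lsm4 (chromosome 8), a subunit of the ring that binds U6 RNA and decaying messages, was at 148 and 186 FPKM in DDC light polysomes, against 34.3 and 38.3 FPKM in DDC monosomes (2.16, SE 0.21, adjusted p = 0.00129). Timm10 (chromosome 2), a chaperone of the mitochondrial intermembrane space, was at 53.2 and 66.7 FPKM in light polysomes, against 12.6 and 13.5 FPKM in monosomes (2.11, SE 0.25, adjusted p = 0.00165). Genes named in this part were picked only if every light polysome value was above every monosome value. Dbi, the acyl-CoA binding protein, was at 2140 and 4150 FPKM in light polysomes, against 546 and 911 FPKM in monosomes (2.08, adjusted p = 0.00521). Pfdn2, a subunit of the prefoldin chaperone, was at 52.0 and 59.5 FPKM, against 9.98 and 16 FPKM (2.05, adjusted p = 0.00202). Srp14, a protein of the signal recognition particle, was at 122 and 165 FPKM, against 33.8 and 41.0 FPKM (1.90, adjusted p = 0.00165). These 3 were picked by the same rule. Wfdc17, a small secreted protein with a WAP domain, had the largest difference of the 10 named rises (2.37, SE 0.43, adjusted p = 0.00829), with 144 and 408 FPKM in light polysomes, against 45.8 and 46.3 FPKM in monosomes. It was no longer called without light polysome replicate 2. Tceal9, of a family related to a transcription elongation factor, was at 45.3 and 59.9 FPKM in light polysomes, against 12.4 and 13.3 FPKM in monosomes (1.93, adjusted p = 0.00512).

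**Figure D1:**
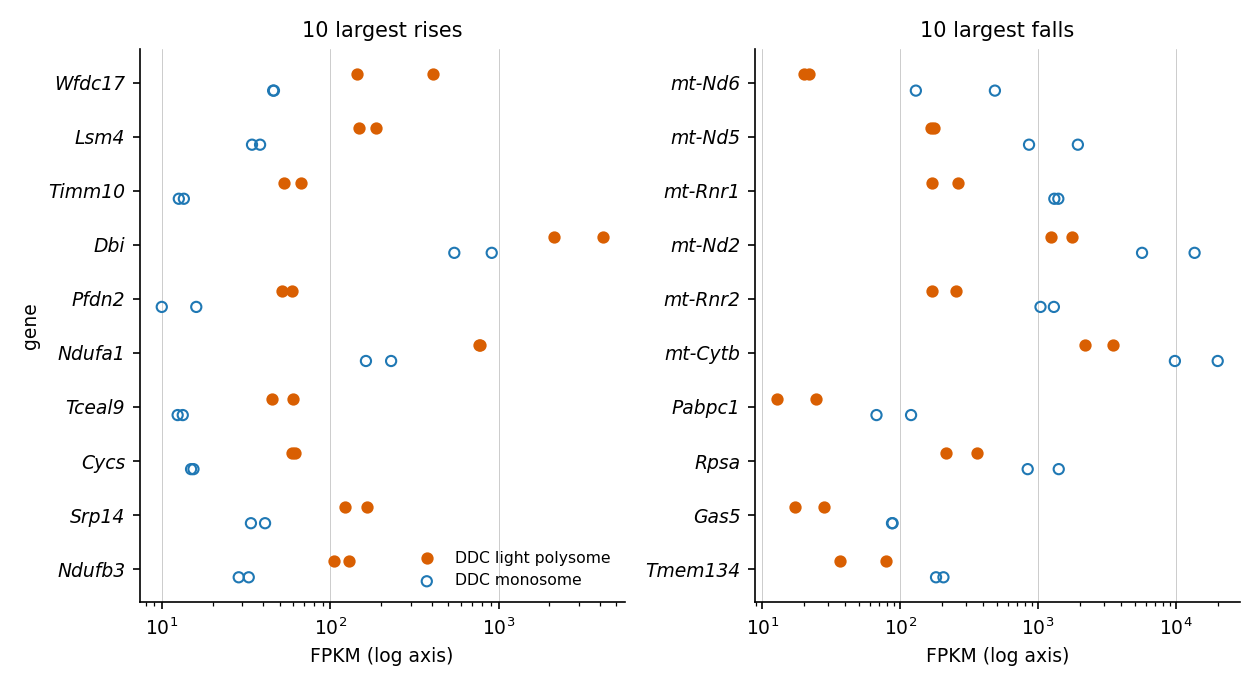
FPKM on a log axis of the 10 largest rises and the 10 largest falls among called genes with a mean of at least 50 FPKM in either fraction, with 1 point for each library and no error bars: filled points for the 2 DDC light polysome libraries, above the open points for the 2 DDC monosome libraries. Predicted genes and pseudogenes were left out. Genes were picked with no overlap between the fractions, so the filled points lie to one side of the open ones. Lsm4, for example, stood at 148 and 186 FPKM against 34.3 and 38.3 FPKM.

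The difference followed coding length. Coding length was taken from the protein-coding transcript of a gene that held the most fragments in these 4 libraries. Among 325 genes with a coding sequence under 300 nt, 77 were higher on light polysomes (23.7%, against 3.42% of all genes tested) and 5 were lower, with a median difference of 0.67. Of 1372 genes from 300 to below 600 nt, 179 were higher (13%) and the median was 0.49. From 600 to below 1200 nt 64 of 3136 were higher (2.04%, median 0.12), from 1200 to below 2400 nt 4 of 3315 (0.121%, median -0.10), and from 2400 nt 0 of 1324 (median -0.21). The lower genes showed no such gradient, with 0.729% to 1.54% of each length class called. Preparations B and C had medians of 0.54 and 0.84 in the shortest class and of -0.21 and -0.20 in the longest. The protein-coding genes called higher had a median coding length of 390 nt, against 1179 nt for those called lower and 1215 nt for those not called.

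Short coding sequences also sit in short transcripts, and the whole transcript moved with the difference as well. Within transcripts of 1000 to 1999 nt, 65 of 563 genes with a coding sequence under 600 nt were higher (median 0.53), against 42 of 1605 with 600 to below 1200 nt (0.22) and 1 of 548 with 1200 nt or more (0.04). Within coding sequences under 600 nt, 158 of 754 genes with a transcript under 1000 nt were higher (median 0.67), against 28 of 315 with a transcript of 2000 to 3999 nt (0.32). The genes called higher had a median 3' untranslated region of 309 nt, against 986 nt for those called lower and 788 nt for those not called. The part of transcript length in the difference was not tested further.

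**Figure D2:**
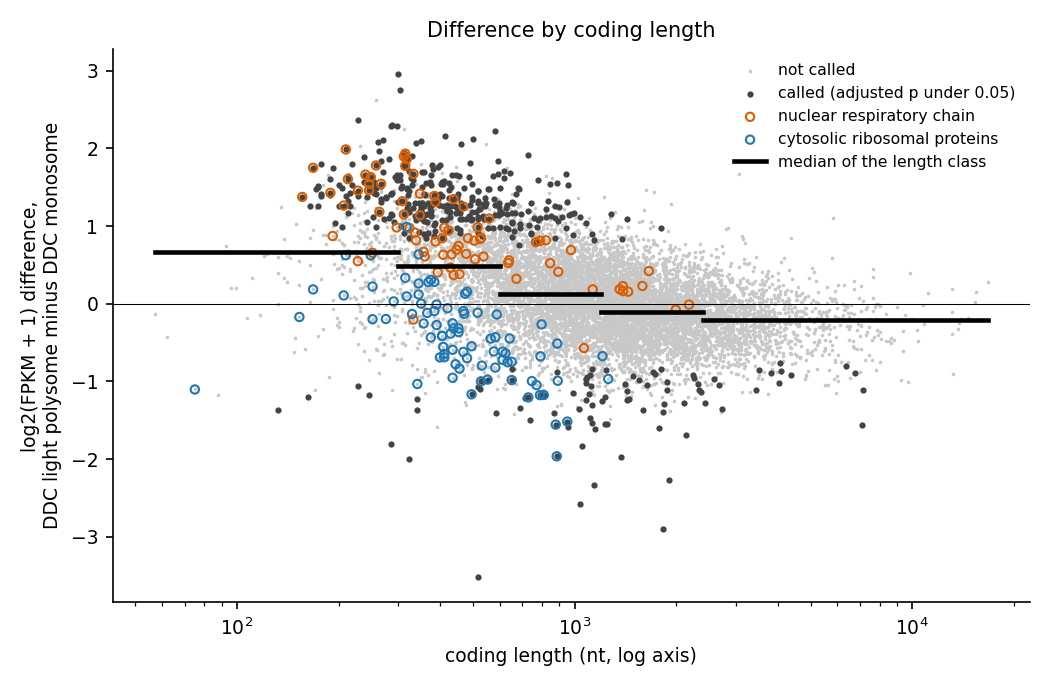
Difference in log2(FPKM + 1), DDC light polysome minus DDC monosome, against coding length in nt on a log axis, with 1 point for each protein-coding gene tested; dark points are called, orange rings mark nuclear genes of the respiratory chain, blue rings cytosolic ribosomal protein genes, and black bars the median of each length class. The medians step down from 0.67 under 300 nt to -0.21 from 2400 nt, and from 300 to below 600 nt the median of the blue rings is -0.32, against 0.53 for the other genes.

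The coding sequences of 3 short messages show the range, since they have room for few ribosomes and stood at different ends of the comparison. They come from GENCODE M21, with the start and stop codons in capitals. Ndufa1, with 70 codons, lies at chrX:37187588-37191163 on the minus strand. Uqcr11, with 56 codons, lies at chr10:80402997-80406830 on the minus strand. Rpl41, with 25 codons, lies at chr10:128548114-128549305 on the minus strand.
Ndufa1: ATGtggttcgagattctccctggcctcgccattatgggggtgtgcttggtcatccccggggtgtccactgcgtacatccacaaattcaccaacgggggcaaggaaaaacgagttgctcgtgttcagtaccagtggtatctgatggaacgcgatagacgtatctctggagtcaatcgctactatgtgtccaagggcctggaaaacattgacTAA
Uqcr11: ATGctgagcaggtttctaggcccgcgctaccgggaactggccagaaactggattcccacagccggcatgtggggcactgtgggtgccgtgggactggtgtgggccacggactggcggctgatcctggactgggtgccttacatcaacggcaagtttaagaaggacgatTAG
Rpl41: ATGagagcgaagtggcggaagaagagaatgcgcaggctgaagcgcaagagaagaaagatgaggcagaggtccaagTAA

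Ndufa1, a subunit of complex I, was at 772 and 767 FPKM in DDC light polysomes, against 163 and 230 FPKM in DDC monosomes (1.99, SE 0.23, adjusted p = 0.00165). Uqcr11, a subunit of complex III, was at 1940 and 2390 FPKM in light polysomes, against 731 and 559 FPKM in monosomes (1.75, SE 0.38, adjusted p = 0.0227). Rpl41, the shortest ribosomal protein, was at 1220 and 2880 FPKM in light polysomes, against 3810 and 4280 FPKM in monosomes, a difference of -1.10 (SE 0.39) that was not called (adjusted p = 0.127). The libraries of the 2 fractions did not overlap in any of the 3 genes. The shortest coding sequence of the 3 was the one with lower values on light polysomes. Uqcr11 was not called when any 1 of the 4 libraries was left out.

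The nuclear genes of the respiratory chain, which build complexes I to IV and the ATP synthase of the inner mitochondrial membrane, were the largest block among the genes called higher. Of 77 genes tested, 31 were higher on light polysomes and 0 lower (40.3%, against 3.42% of all genes tested), 73 differences were above 0, and the median was 0.84, against 0.02 for all genes tested. Preparations B and C both had a median of 0.90. Complex IV had 8 of 11 subunits higher, with a median of 1.35. Cox6b1, a subunit on the intermembrane face of complex IV, was at 805 and 953 FPKM in light polysomes, against 277 and 234 FPKM in monosomes (1.78, adjusted p = 0.00242). Cox8a was at 2570 and 2700 FPKM, against 1130 and 1070 FPKM (1.26, adjusted p = 0.0169). In both subunits the light polysome values were above the monosome values, and Cox8a was not called without light polysome replicate 2 or without either monosome library.

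Complex III had 4 of 9 subunits higher, the ATP synthase 6 of 15, complex I 11 of 37 and complex II 1 of 4. Cycs, the electron carrier cytochrome c, was at 61.6 and 59.3 FPKM in light polysomes, against 15.4 and 14.9 FPKM in monosomes (1.93, SE 0.24, adjusted p = 0.00190). Ndufb3 of complex I was at 130 and 105 FPKM, against 28.6 and 32.8 FPKM (1.90, adjusted p = 0.00235). Atp5e, the smallest subunit of the ATP synthase, was at 711 and 1160 FPKM, against 376 and 325 FPKM (1.38, adjusted p = 0.0404, and 0.0658 with preparation as a replicate block). In all 3 the light polysome values lay above the monosome values, and Atp5e was not called without light polysome replicate 2 or without either monosome library. Most calls were in subunits with short coding sequences. Of 58 genes under 600 nt 30 were higher, with a median of 0.98, and of 19 genes with 600 nt or more 1 was higher, with a median of 0.32. All protein-coding genes under 600 nt had a median of 0.54 with 15.1% higher. Those with 600 nt or more had a median of -0.04 with 0.875% higher. Ndufs1, the large iron-sulfur subunit of complex I, was at 20.8 and 28.3 FPKM in light polysomes, against 25.5 and 23.4 FPKM in monosomes (-0.01, adjusted p = 0.992), with overlapping libraries.

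Other nuclear genes for mitochondrial proteins had the same direction. Of 77 mitochondrial ribosomal protein genes, 15 were higher (19.5%, against 3.42% of all genes tested) and 0 lower (median 0.65). Under 600 nt of coding sequence 12 of 41 were higher (29.3%), against 15.1% of all protein-coding genes of that length. Mrps28 was at 41.2 and 47.0 FPKM in light polysomes, against 13.9 and 16.6 FPKM in monosomes (1.48, adjusted p = 0.00414). Mrpl34 was at 270 and 388 FPKM, against 113 and 139 FPKM (1.36, adjusted p = 0.00674). Neither overlapped between fractions. Of 26 genes of mitochondrial import and intermembrane space proteins 8 were higher (30.8%) and 0 lower (median 0.73). All 8 were among the 20 members under 600 nt (40.0%, against the same 15.1%). Romo1, a small inner membrane protein, was at 661 and 532 FPKM in light polysomes, against 192 and 206 FPKM in monosomes (1.57, SE 0.25, adjusted p = 0.00459). Timm13, which works beside Timm10 in import, was at 261 and 290 FPKM, against 97.1 and 109 FPKM (1.41, adjusted p = 0.0174). Neither overlapped between fractions, and Timm13 was not called without light polysome replicate 2 or monosome replicate 1. Both stood highest on light polysomes among the 3 gradient fractions, with means of 263 FPKM (Romo1) and 149 FPKM (Timm13) on heavy polysomes. The long member Tomm40, the import pore, was at 28.8 and 39.4 FPKM in light polysomes, against 36.4 and 47.9 FPKM in monosomes (-0.30, adjusted p = 0.599), with overlapping libraries.

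Small ubiquitin-like modifiers and other short proteins of protein degradation had a median of 1.14. Of 23 genes 11 were higher (47.8%, against 3.42% of all genes tested) and 0 lower. The list is one of short proteins, and 21 members had a coding sequence under 600 nt. Of these 11 were higher (52.4%), against 15.1% of all protein-coding genes of that length. Ubl5, a ubiquitin-like protein of splicing, was at 382 and 493 FPKM in light polysomes, against 119 and 129 FPKM in monosomes (1.80, SE 0.22, adjusted p = 0.00165). Gabarapl2, a protein of autophagosome membranes, was at 24.9 and 29.6 FPKM, against 5.43 and 5.70 FPKM (2.10, adjusted p = 0.00221). Nedd8, the modifier of cullin ligases, was at 232 and 344 FPKM, against 118 and 99.1 FPKM (1.38, adjusted p = 0.00802). In these 3 genes the light polysome values were above the monosome values. The modifiers Sumo2 and Ufm1 were higher by 2.28 and 1.56 log2 units. Without light polysome replicate 2 the calls of Nedd8, Sumo2 and Ufm1 were lost, without monosome replicate 1 those of Sumo2 and Ufm1, and without either other library that of Ufm1. Of 37 proteasome genes, whose coding sequences have a median of 867 nt, 2 were higher (5.41%, near the 3.42% of all genes tested). Both, Psmb2 and Psma7, are subunits of the proteasome core. Neither was called without light polysome replicate 2 or monosome replicate 1, nor Psma7 without light polysome replicate 1. In this list 35 differences were above 0 and the median was 0.38. With the replicate block Psmb2 was not called (adjusted p = 0.0552). All 37 had their highest mean on heavy polysomes, against 42.7% of all genes tested.

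Of 24 genes of the small nuclear ribonucleoprotein cores and the Lsm ring, which bind spliceosomal RNAs, 8 were higher and 1 was lower. Their median was 0.92, and the share higher was 33.3%, against 3.42% of all genes tested. Under 600 nt of coding sequence 8 of 17 were higher (47.1%), against 15.1% of all protein-coding genes of that length. Snrpf was at 53.5 and 69.7 FPKM in light polysomes, against 21.1 FPKM in both monosome libraries (1.49, adjusted p = 0.00299). Lsm8 was at 18.8 and 16.1 FPKM, against 3.58 and 2.02 FPKM (2.31, adjusted p = 0.00512). The gene called lower was Lsm12, which is named for its Lsm domain, at 7.47 and 4.75 FPKM in light polysomes, against 16.4 and 18.8 FPKM in monosomes (-1.41, adjusted p = 0.0157). None of the 3 overlapped between fractions. Of 44 SR and hnRNP splicing proteins 2 were higher, Hnrnpab (1.17) and Srsf9 (1.16), and 0 lower. The share higher was 4.55%, near the 3.42% of all genes tested. The calls of Hnrnpab and Srsf9 were lost without light polysome replicate 2 or monosome replicate 1, and that of Lsm12 without these or monosome replicate 2.

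The remaining lists with calls are set beside the 3.42% of all genes tested that were higher, without regard to coding length. By length the share was 23.7% under 300 nt and 13% from 300 to below 600 nt. Median coding lengths were 426 nt for S100 and annexin genes, 577.5 nt for selenoprotein genes and 397.5 nt for histone genes. Among 16 S100 and annexin genes, most of them calcium-binding proteins, S100a4 (2.75, adjusted p = 0.00165) and S100a1 (1.86, adjusted p = 0.0118) were higher (12.5%, and 4 genes with the replicate block) and the median was 1.14. S100a11 was at 520 and 1030 FPKM in light polysomes, against 200 and 630 FPKM in monosomes (1.04, adjusted p = 0.336), with overlapping libraries. Of 34 initiation factors 2 were higher (5.88%, and 3 genes with the block), Eif1b (1.08) and Eif1ax (1.66), and 0 lower. Of 18 selenoprotein genes 3 were higher (16.7%): Gpx1, a glutathione peroxidase, at 12100 and 13100 FPKM in light polysomes, against 5630 and 4400 FPKM in monosomes (1.34, adjusted p = 0.0135), Msrb1 (1.20), and Selenop, the plasma selenium carrier (0.82, adjusted p = 0.0477, and 0.0974 with the replicate block). Of 45 cytoskeleton and keratin genes 6 were higher (13.3%), led by the myosin light chains Myl6 (1.65) and Myl12a (1.32), and Actn4, an actin crosslinker, was lower (-1.35). Of 12 histone genes 1 was higher (8.33%; H3f3a, 1.08, adjusted p = 0.0386, and 0.0505 with the block). Of 29 mitosis genes 1 was higher (3.45%) and was lost without light polysome replicate 2: Cks2, a small partner of cyclin-dependent kinases, at 71.6 and 97.8 FPKM in light polysomes, against 22.8 and 21.1 FPKM in monosomes (1.89, adjusted p = 0.00655). Of the other calls in these lists, only that of S100a4 held whichever of the 4 libraries was left out, among those named here.

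**Figure D3:**
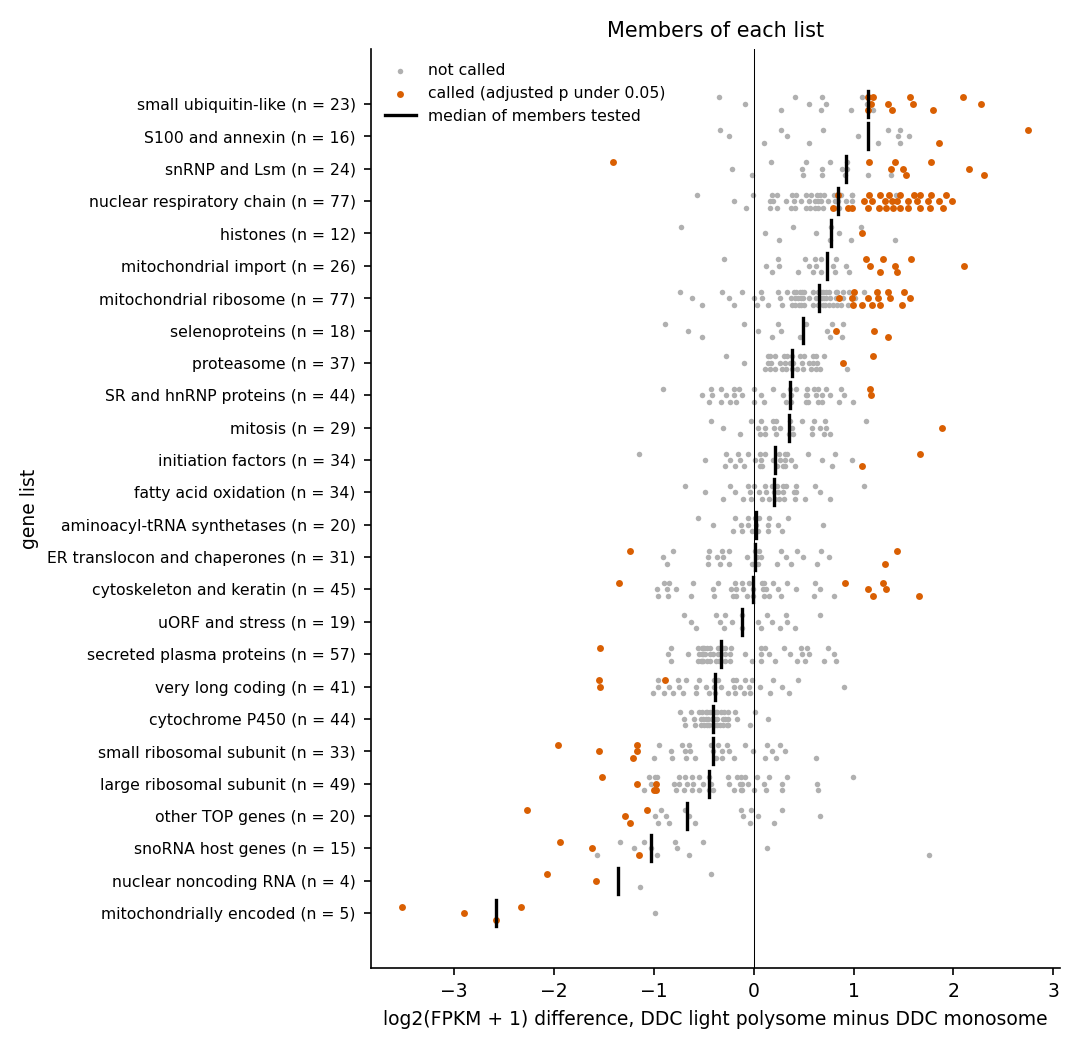
Difference in log2(FPKM + 1), DDC light polysome minus DDC monosome, for each tested member of 26 gene lists (1 point a gene, orange where called), with a black bar at the median of the list and lists ordered by it. The lists run from small ubiquitin-like proteins at 1.14 and the nuclear respiratory chain at 0.84 to ribosomal proteins at -0.41 and -0.45 and the mitochondrially encoded transcripts at -2.58.

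The ribosomal protein genes lay on the other side. Of 33 genes of the small subunit 0 were higher and 5 were lower (15.2%, against 1.19% of all genes tested), with a median of -0.41, and of 49 genes of the large subunit 0 were higher and 5 lower (10.2%, and 2 genes with preparation as a replicate block), with a median of -0.45. Rpsa, at the head of the small subunit calls, was at 216 and 359 FPKM in DDC light polysomes, against 1410 and 840 FPKM in DDC monosomes (-1.96, SE 0.30, adjusted p = 0.00414). Rps2 was at 177 and 275 FPKM, against 706 and 598 FPKM (-1.55, adjusted p = 0.00448). Rplp0, the base of the ribosomal stalk, was at 413 and 588 FPKM, against 1590 and 1250 FPKM (-1.52, SE 0.23, adjusted p = 0.00432). In these 3 genes every light polysome value was below every monosome value. Rps3, Rps4x, Rps10, Rpl7, Rpl10a and Rpl17 were lower by 0.98 to 1.21 log2 units, and each was lost without light polysome replicate 1 or monosome replicate 1. Of these, Rps4x, Rpl10a and Rpl17 were not called with the replicate block (adjusted p = 0.0614 to 0.0662). At 600 to below 1200 nt of coding sequence 7 of 19 ribosomal protein genes were lower with a median of -0.98, against 24 of 3117 other genes with a median of 0.13. At 300 to below 600 nt the medians were -0.32 for 51 ribosomal protein genes and 0.53 for 1321 others.

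Preparations B and C differed in these genes. The median of the 82 ribosomal protein genes was -0.91 in preparation B, where 77 were lower on light polysomes than on monosomes, and 0.04 in preparation C, where 40 were. Over all genes tested 49.6% and 46.0% were lower on light polysomes in preparations B and C. Without light polysome replicate 1 the medians were -0.29 for the small subunit and -0.08 for the large, and without monosome replicate 1 they were -0.19 and -0.29. Some short members were not called. Rps29 was at 1370 and 2530 FPKM in light polysomes, against 1990 and 1340 FPKM in monosomes (0.18, adjusted p = 0.816), with overlapping libraries. Rplp1, a stalk protein, was at 2020 and 2460 FPKM, against 5740 and 3610 FPKM (-1.03, adjusted p = 0.120), without overlap.

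Most of these genes had their highest FPKM on heavy polysomes, a comparison of means with no test and no scaling to equal totals. In 58 of the 82 ribosomal protein genes (70.7%, against 24.2% of all genes tested) light polysomes had the lowest mean of the 3 DDC fractions, and in 64 heavy polysomes had the highest. By preparation, light polysomes were lowest in 71 genes in B and 38 genes in C, against 28.7% and 21.8% of all genes. Rpsa averaged 1130 FPKM in monosomes, 288 FPKM in light polysomes and 1020 FPKM in heavy polysomes. The respiratory chain genes had a different course, with median levels of 7.25 on monosomes, 8.31 on light polysomes and 8.36 on heavy polysomes in log2(FPKM + 1).

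**Figure D4:**
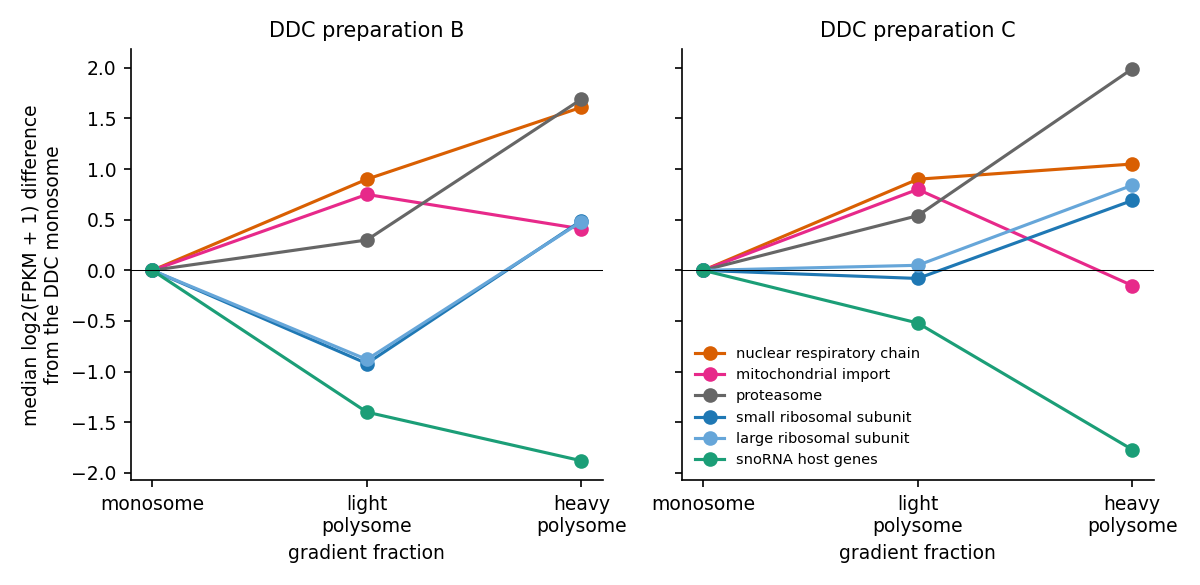
Median over the members of 6 gene lists of the difference in log2(FPKM + 1) from the DDC monosome, in monosome, light polysome and heavy polysome libraries, drawn for DDC preparations B and C; each point is 1 library per fraction and has no error bar. Light polysome medians of the nuclear respiratory chain are 0.90 in both preparations, while those of the small ribosomal subunit are -0.92 in B and -0.08 in C.

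Other TOP messages followed the ribosomal proteins, with 0 of 20 higher and 4 lower (20%, against 1.19% of all genes tested). Their median was -0.67 (-1.08 in preparation B and -0.18 in C). Pabpc1, the cytoplasmic poly(A) binding protein, was at 24.7 and 12.8 FPKM in light polysomes, against 67.4 and 120 FPKM in monosomes (-2.27, SE 0.36, adjusted p = 0.00493). Eif4b, a cofactor of the cap-binding helicase, was at 10 and 9.82 FPKM, against 26.0 and 25.5 FPKM (-1.29, adjusted p = 0.00743). Eif3f, a subunit of initiation factor eIF3, was at 47.8 and 40.5 FPKM, against 133 and 82.9 FPKM (-1.24, adjusted p = 0.0144). None of the 3 overlapped between fractions. Eif3f was not called without light polysome replicate 2 or monosome replicate 1. Tpt1, a TOP message for a protein linked to growth, was lower by 1.07 log2 units (adjusted p = 0.0426, and 0.0814 with the replicate block) and was lost without either library of replicate 1. The elongation factors Eef1a1 (-0.88, adjusted p = 0.184) and Eef2 (-0.96, adjusted p = 0.0891) were not called.

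The start of a TOP message is what sets it apart, and 30 bases around the RefSeq annotated start (GRCm38.p6) are shown for 3 genes called lower and for Ndufa1, called higher, with the longest run of C and T in capitals. The windows are chr1:161035151-161035180 on the plus strand for Gas5, chr3:123508322-123508351 on the minus strand for Snhg8, chr7:108934400-108934429 on the plus strand for Eif3f and chrX:37191224-37191253 on the minus strand for Ndufa1, each with 15 bases before the start and 15 from it on.
Gas5: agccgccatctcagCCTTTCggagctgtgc
Snhg8: gcaccgttcagaagTCTCTTTggctgcgat
Eif3f: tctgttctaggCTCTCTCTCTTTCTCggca
Ndufa1: ggaccgcgaacgccagtcaCTTTTgggccc
Gas5 had 2 RefSeq entries, and the start with the longest run in its window was taken. In Gas5, Snhg8 and Eif3f the run spans the annotated start. Over 60 bases around the start, the letters CTTTC on the sense strand were in 22 of 61 ribosomal protein genes with a window (36.1%), 3 of 14 other TOP genes, 4 of 15 snoRNA host genes and 4 of 64 respiratory chain genes (6.25%), against 614 of 7748 genes tested (7.92%) and 9.18% of 27025 genes with a window. On either strand they were in 44.3% of the ribosomal protein genes and 14.3% of the genes tested. Of the genes called lower 9 of 74 held them (12.2%), and of those called higher 22 of 271 (8.12%).

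Host genes of small nucleolar RNAs are spliced transcripts whose introns carry the guide RNAs of ribosomal RNA modification. Of 15 tested 0 were higher and 3 lower (20%, against 1.19% of all genes tested), 13 differences were below 0, and the median was -1.03 (-1.40 in preparation B and -0.52 in C). Gas5 was at 17.2 and 28.2 FPKM in light polysomes, against 88.2 and 87.3 FPKM in monosomes (-1.94, SE 0.28, adjusted p = 0.00329), and at 9.55 and 6.50 FPKM on heavy polysomes. Snhg8 was at 13.5 and 25.5 FPKM in light polysomes, against 54.6 and 64.1 FPKM in monosomes (-1.62, adjusted p = 0.0227). Neither overlapped between these fractions, and Snhg8 was not called without light polysome replicate 1 or without either monosome library. In 13 of the 15 host genes the monosome had the highest mean of the 3 fractions, against 32.3% of all genes tested.

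Among nuclear noncoding RNAs, 4 of 15 passed the filter, and Neat1, the scaffold of paraspeckles, was at 5.85 and 1.95 FPKM in light polysomes, against 28.9 and 10.9 FPKM in monosomes (-2.07, adjusted p = 0.0227), a call lost without light polysome replicate 2 or monosome replicate 1. Malat1, which resides in nuclear speckles, was at 0.435 and 0.555 FPKM, against 2.28 and 2.31 FPKM (-1.14, adjusted p = 0.261). The imprinted noncoding RNA H19 was at 2.78 and 2.55 FPKM, against 17.0 and 32.5 FPKM (-2.74, SE 0.31, adjusted p = 0.00129). In all 3 the light polysome values lay below the monosome values. Of the lincRNA genes tested 2 of 80 were higher and 5 lower. By annotation class of transcript, 6 of 115 lincRNA transcripts were lower (5.22%, against 0.886% of the 15127 transcripts tested). Transcripts annotated for nonsense-mediated decay had 13 higher and 14 lower of 752, and those with a retained intron 18 and 18 of 1044, against 2.51% higher over all transcripts. Within genes, decay transcripts were lower than the main coding transcript in 274 of 525 genes (52.2%), with a median difference of -0.03, and transcripts with a retained intron in 415 of 726 genes (57.2%), with a median of -0.16.

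Transcripts of the mitochondrial genome made up 6 of the 10 largest falls among genes of at least 50 FPKM. Of the 13 protein genes of the mitochondrial genome 8 passed the filter, 5 could be tested and 4 were lower. mt-Nd5 was at 177 and 167 FPKM in light polysomes, against 859 and 1940 FPKM in monosomes (-2.90, SE 0.43, adjusted p = 0.00414). mt-Nd2 was at 1230 and 1750 FPKM, against 5660 and 13600 FPKM (-2.58, adjusted p = 0.00432). The small ribosomal RNA of the mitochondrion, mt-Rnr1, was at 170 and 264 FPKM, against 1310 and 1400 FPKM (-2.67, adjusted p = 0.00859). They were picked without overlap between fractions, and mt-Rnr1 was not called without light polysome replicate 1. mt-Nd1 was listed at 4210 and 4600 FPKM in light polysomes and at 0 in both monosome libraries, mt-Co1 at 1910 and 4790 FPKM and at 0, and no direction can be read from these. The rule for missing values covered only the fractions compared. mt-Nd5, mt-Nd6 and mt-Cytb were tested and called lower although listed at 0 in both DDC cytoplasm libraries. mt-Cytb was also at 0 in both CHOW monosome libraries. Nuclear copies of mitochondrial sequence can share reads with the mitochondrial genes, which leaves their levels uncertain.

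Of 41 genes with very long coding sequences 0 were higher and 3 were lower (7.32%, against 1.19% of all genes tested), with a median of -0.39: Sptbn1, a spectrin, at 1.12 and 1.05 FPKM in light polysomes, against 5.03 and 5.22 FPKM in monosomes (-1.55, adjusted p = 0.00414), Apob, and Abca1, the cholesterol exporter (-0.89, adjusted p = 0.0324, and 0.0819 with the replicate block), which was not called when any 1 of the 4 libraries was left out. Apob, the protein of very low density lipoprotein, was at 131 and 173 FPKM, against 504 and 386 FPKM (-1.54, SE 0.26, adjusted p = 0.00634). It averaged 109 FPKM on heavy polysomes. Its longest annotated coding sequence has 13515 nt, but that of the transcript with the most fragments has 1233 nt. For Ahnak of the same list these lengths were 16968 nt and 450 nt, so the list mixes lengths. Fasn, the fatty acid synthase, was at 164 and 235 FPKM in light polysomes, against 164 and 309 FPKM in monosomes (-0.20, adjusted p = 0.892).

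Apob was also the single call among 57 secreted plasma proteins (1.75% lower, near the 1.19% of all genes tested). Their median was -0.33, but -0.85 in preparation B and 0.25 in preparation C, and 0.17 without light polysome replicate 1. Apoa2 was at 29900 and 33600 FPKM in light polysomes, against 27500 and 29900 FPKM in monosomes (0.15, adjusted p = 0.874), and Ttr, the thyroxine carrier, at 4840 and 7790 FPKM, against 4660 and 7340 FPKM (0.07, adjusted p = 0.948). Ttr overlapped between fractions. Over all genes tested, 2019 of 9966 had an unadjusted p under 0.05 by limma. Of 44 cytochrome P450 genes limma called 0, with 1 at an unadjusted p under 0.05, 42 differences were below 0 and the median was -0.41. Of 34 fatty acid oxidation genes 0 were called (2 at an unadjusted p under 0.05, median 0.20), and of 20 aminoacyl-tRNA synthetase genes 0 (1 at an unadjusted p under 0.05). Their median was 0.02, but -0.07 with equal totals and -0.09 after quantile normalization. Of 19 genes known for upstream reading frames or stress regulation 0 were called (1 at an unadjusted p under 0.05). With the replicate block these 4 lists had 0 calls as well. Atf4, the factor whose upstream frames hold back its translation, was at 50.6 and 76.2 FPKM in light polysomes, against 92.7 and 70.7 FPKM in monosomes (-0.38, adjusted p = 0.466), and Ddit3, its target, was at 8.04 and 24.2 FPKM, against 20.4 and 22.8 FPKM (-0.58, adjusted p = 0.474), both with overlapping libraries. In the translocon of the endoplasmic reticulum the small subunits Sec61b (1.43, adjusted p = 0.0157) and Sec61g (1.31, adjusted p = 0.0231) were higher, and Sec61a1, the channel itself, was lower (-1.24, adjusted p = 0.0388). Each of these 3 calls was lost without light polysome replicate 2.

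Some genes of the injured liver differed widely between the preparations. Lcn2, an iron-scavenging acute-phase protein, was at 2710 and 13900 FPKM in light polysomes, against 4250 and 18200 FPKM in monosomes (-0.52, SE 1.14, adjusted p = 0.862). Ly6d, a GPI-anchored protein of the cell surface, stood at 803 and 5620 FPKM, against 465 and 4190 FPKM (0.60, adjusted p = 0.857). In both genes replicate 2, from preparation C, was the high one in both fractions. Krt8 and Krt18, the keratins of hepatocytes, were at 606 and 1360 FPKM (Krt8) and 527 and 1590 FPKM (Krt18) in light polysomes, against 683 and 835 FPKM (Krt8) and 1270 and 1550 FPKM (Krt18) in monosomes, and neither was called (adjusted p = 0.789 and 0.602). Spp1 (0.72), Ccnd1 (-0.82), Cyp2e1 (-0.70), Cps1 (-0.76) and Hbb-bs (-0.05) were not called either (adjusted p = 0.307 to 0.989).

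Markers were checked for the labelled cell type and for others. The 13 hepatocyte markers summed to 22400 and 29300 FPKM in light polysomes, against 20800 and 24300 FPKM in monosomes, with Alb and Apoa1 listed at 0 in all 4 libraries, and 0 of 11 were called (0 at an unadjusted p under 0.05). The 25 Kupffer cell and macrophage markers summed to 2180 and 3150 FPKM, against 1490 and 1200 FPKM. Of 22 tested 3 were higher (13.6%, against 3.42% of all genes): Lyz2 (1.65), Fcer1g (1.5) and Aif1 (1.26), which encode small proteins. None of these 3 calls held whichever of the 4 libraries was left out. The 23 stellate cell and fibroblast markers summed to 236 and 253 FPKM, against 409 and 264 FPKM. Of 19 tested 1 was lower (5.26%, against 1.19% of all genes): Des (-1.03, adjusted p = 0.0231). Its call was lost without light polysome replicate 1 or either monosome library. Of the ductal, endothelial, neutrophil and red blood cell markers tested 0 were called (1, 0, 2 and 0 at an unadjusted p under 0.05), and the 16 lymphocyte markers summed to 1.27 to 3.56 FPKM with none past the filter. An unadjusted p under 0.05 by limma was held by 2019 of all 9966 genes tested. The 2 fractions of a replicate carry the same preparation letter, so these sums compare fractions of a preparation and do not count cells of a type. The part of other cell types in the differences was not tested.

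The same comparison in chow, CHOW light polysomes against CHOW monosomes, called 909 genes higher (9.13%) and 545 lower (5.47%) of 9955 tested. Of the genes higher in DDC 245 were also higher in chow, which is 71.8% of the DDC calls and 27.0% of the chow calls, and of the genes lower in DDC 87 were also lower in chow, 73.1% and 16%. No gene higher in DDC was lower in chow, and 1 gene lower in DDC was higher in chow. The diet difference of the comparison, DDC minus chow, was tested as an interaction: limma called 0 of 9953 genes, 740 had an unadjusted p under 0.05 (7.43%), and the smallest adjusted p was 0.0575. A gene called in one diet and not in the other is therefore not shown to differ between them.

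The list medians of ribosomal proteins differed between diets. The small subunit had a median of -0.41 in DDC and -1.75 in chow, the large subunit -0.45 and -1.47, and the other TOP genes -0.67 and -1.32. In chow 30 of 33 and 41 of 49 ribosomal protein genes were lower on light polysomes. The diet difference was above 0 in 32 of 33 and 49 of 49 genes, with an unadjusted p under 0.05 in 27 and 34, against 7.43% of all genes, and 0 were called. Preparation C, with a median of 0.04, stood apart from preparation B at -0.91 and from the chow preparations at -1.62 and -1.56. Rps21 was at 898 and 1240 FPKM in DDC light polysomes, against 892 and 524 FPKM in DDC monosomes (0.62), with a chow difference of -0.91 and a diet difference of 1.53 (adjusted p = 0.467).

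Secreted plasma proteins had a median of -0.33 in DDC and 0.79 in chow, and cytochrome P450 genes -0.41 and 0.42. The DDC median of the plasma proteins was -0.85 in preparation B and 0.25 in C. Of these 57 genes 52 could be tested in chow, and the chow median also takes in those listed at 0 in a chow fraction, such as Apoa2 and Ttr. The medians of the 2 diets thus do not rest on equally usable values. Cp, the ferroxidase ceruloplasmin, was at 484 and 700 FPKM in DDC light polysomes, against 971 and 1100 FPKM in DDC monosomes (-0.83), and its chow difference was 1.02 (diet difference adjusted p = 0.360). The nuclear respiratory chain had 0.84 in DDC and 1.11 in chow, where 54 of 77 were higher. H19 was listed at 0 in both CHOW light polysome libraries, against 0.355 and 0 FPKM in CHOW monosomes, so that its placement in chow could not be compared. Among protein-coding genes Dsg2, a desmosomal cadherin, had the smallest adjusted p of the diet difference (0.0575). It was at 5.49 and 6.84 FPKM in DDC light polysomes, against 6.85 and 9.33 FPKM in DDC monosomes, and was listed at 0 in both CHOW light polysome libraries, against 6.98 and 8.28 FPKM in CHOW monosomes. Dsg2 stayed below the 100 FPKM of the rule for missing values, so these listed values of 0 were tested as they stood. Its diet difference rests on them, and its placement in chow is uncertain.

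**Figure D5:**
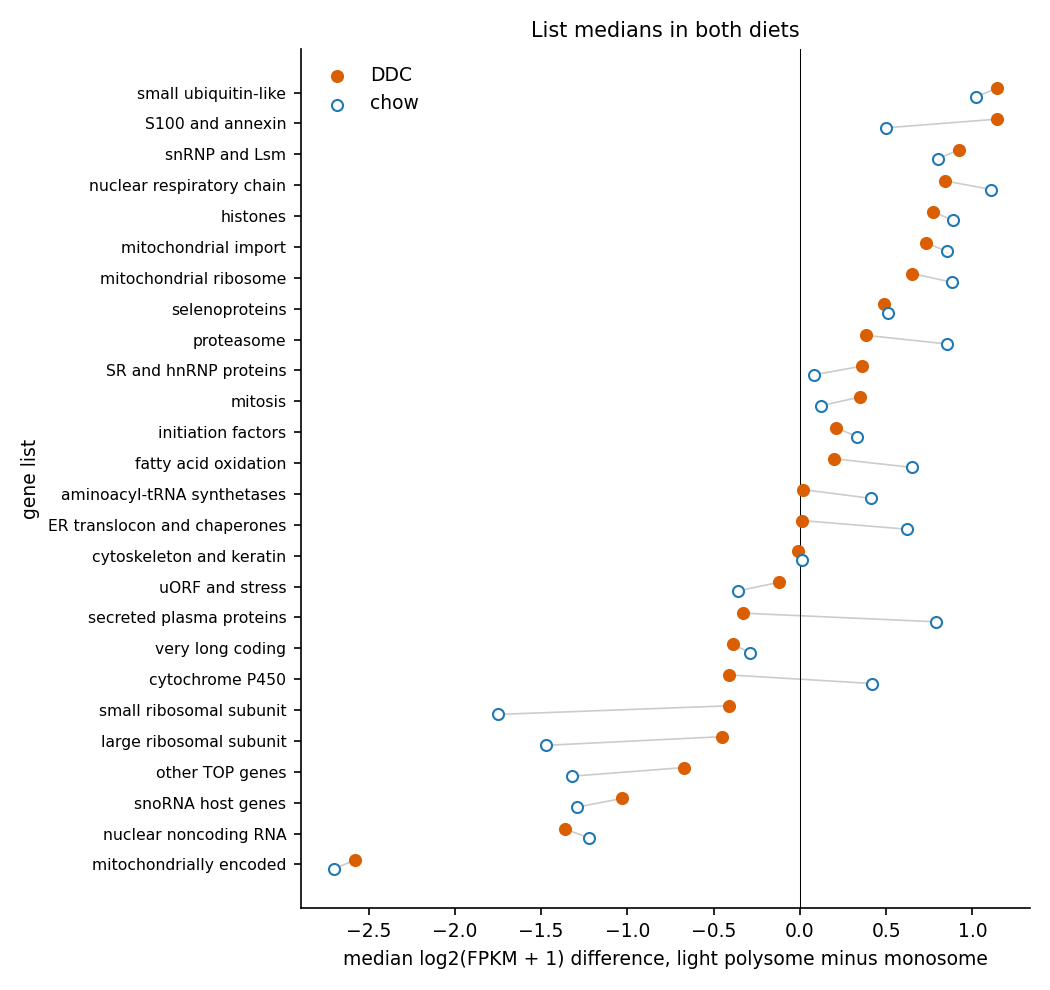
Median difference in log2(FPKM + 1), light polysome minus monosome, of 26 gene lists, with DDC as filled points above chow as open points and no error bars. The ribosomal protein lists stand at -0.41 and -0.45 in DDC and at -1.75 and -1.47 in chow, and secreted plasma proteins at -0.33 in DDC and 0.79 in chow. The DDC median of the plasma proteins was -0.85 in preparation B and 0.25 in C. Chow medians take in genes listed at 0 in a chow fraction.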

How the data were processed

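Polyadenylated RNA of sucrose gradient fractions and of cytoplasm from isolated hepatocytes was sequenced in 16 libraries, 2 for each of 8 groups. The authors deposited FPKM per transcript, with Cuffnorm named per the submitters' processing notes. By the same notes the build was GRCm38/mm10 and STAR 2.4.2a is among the tools listed, beside Picard 1.119, Trimmomatic and bcl2fastq 2.17.1.14. Transcript estimates can move between isoforms and near-identical copies, which can give a gene a listed value of 0. Of 117567 transcripts 116728 (99.29%) were matched to GENCODE M21. The 839 others held at most 0.509% of a library's FPKM, and 25 rows with a CDS prefix, all at 0, were left out. FPKM were summed by gene.

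Genes with at least 1 FPKM in 2 of the 4 compared libraries were tested with limma 3.58.1 in R 4.3.3 on log2(FPKM + 1), with 8 group means over 16 libraries, a variance trend (8 residual and 4.47 prior degrees of freedom), the contrast DDC light polysome minus DDC monosome and Benjamini-Hochberg adjustment at 0.05. Genes listed at 0 in both libraries of either fraction compared and at 100 FPKM or more in another library were not tested. The diet difference is the interaction contrast. The scripts were tested on simulated data.

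The deposited unit is not a count, so no count test was run. Depth in reads is not given: 1 fragment per kilobase was worth 0.0202 to 0.0442 FPKM in the 4 libraries. The labels give both DDC fractions of a replicate number 1 preparation letter (B or C), and the differences between preparations correlated at 0.395 between DDC monosomes and DDC light polysomes across genes. A fit with preparation as a replicate block over the 12 gradient libraries was the alternative. Other alternatives were the pseudocount, the filter, equal totals, quantile normalization, the libraries fitted and leaving out each library.

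The comparison, its gene lists and its tests were chosen with earlier results of these data known. Genes were named as the 10 largest rises and falls among called genes that averaged 50 FPKM or more in either fraction without overlap, a fixed set, and the 2 members of each list with the lowest p in each direction. Further list members named were chosen after their values were seen. Some list members are not reported here. Sequences come from GENCODE M21 and RefSeq GRCm38.p6. Figures were drawn with matplotlib 3.10.9.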

Additional observations from a re-analysis of the deposited data

How the results depend on the processing

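The counts of calls depended on which libraries gave the spread. Against 460 calls (341 higher on light polysomes, 119 lower), the 8 DDC libraries alone gave 89 (70 and 19). Leaving out the chow libraries of preparation 1 leaves no chow group with a replicate. The spread then comes from the same 8 DDC libraries, so that setting is no separate check. The 4 compared libraries alone gave 0 (0 and 0), and with a replicate block 294 (217 and 77). The 12 gradient libraries without a block gave 187 (154 and 33). Leaving out 1 of the 4 libraries gave 197 to 365 calls, 139 to 287 higher and 58 to 97 lower. A pseudocount of 0.1 gave 74 lower, and quantile normalization 240 lower. No value changed sign with a call.

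With preparation as a replicate block over the 12 gradient libraries 456 genes were called (348 and 108), 287 and 84 of them shared with the fit without it, and 56 of 60 named calls were kept. Under the block the list calls changed by over 1.5 times in large ribosomal subunit genes (2 lower, against 5) and in S100 and annexin genes (4 higher, against 2). The diet difference called 0 genes, but 3 with a pseudocount of 0.1, 21 without the filter, 2 with equal totals, 3 after quantile normalization, 1 without the chow libraries of preparation 1, 10 with genes listed at 0 tested, and 0 to 4 without 1 of the 4 libraries.

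List medians changed sign under some settings: secreted plasma proteins (0.17 without light polysome replicate 1, against -0.33), translocon and chaperone genes (-0.09 with equal totals, -0.20 after quantile normalization, -0.34 without light polysome replicate 2 and -0.25 without monosome replicate 1, against 0.01), aminoacyl-tRNA synthetases (-0.06 without light polysome replicate 2, against 0.02), upstream reading frame genes (0.06 and 0.01 without the light polysome and the monosome library of replicate 1, against -0.12) and cytoskeleton and keratin genes (0.10 at a filter of 5 FPKM, 0.18 without light polysome replicate 1 and 0.11 without monosome replicate 2, against -0.01). Among markers, neutrophil genes had 0.66 without light polysome replicate 1 and 0.53 without monosome replicate 2 (against -0.37), hepatocyte genes 0.01 without monosome replicate 1 (against -0.27), endothelial genes 0.05 without light polysome replicate 1 (against -0.22) and red blood cell genes -0.37 to -0.02 under 4 settings (against 0.02). With the longest annotated coding sequence, the medians by coding length ran from 0.81 under 300 nt to -0.20 from 2400 nt. With protein-coding genes only, the lists of noncoding RNAs and of host genes had no member left. The cause of these changes was not tested. The 2 libraries per group limit the precision of every value.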

Other observations

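Of the genes called, 97 of those higher on DDC light polysomes than on DDC monosomes and 30 of those lower stand in a gene list described above, and 244 and 89 stand in none.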
